A study of Mus musculus with 45 samples.

Results

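The 7 genes described here carry out or govern the oxidation of acetaminophen (APAP) in the liver: Cyp2e1, Cyp1a2 and Cyp3a11, which encode cytochrome P450 enzymes, Por, which encodes their electron donor, and Ahr, Nr1i2 and Nr1i3, which encode the receptors AHR, PXR and CAR. They were taken by gene symbol from a mouse liver expression table of 18180 genes, and all 7 were found in it, each as 1 set of probes. The samples were livers of male C57Bl/6J mice, 8 weeks old, that had fasted for 16 h and were then given 300 mg/kg APAP by oral gavage or the vehicle alone, 1% hydroxyethylcellulose. Food was returned after dosing, and livers were taken at 3, 6, 9 and 24 h from both arms, while a further group was left untreated and sampled after the fast, at 0 h. Each of the 9 groups held 5 mice, every mouse gave 1 array, and different mice were used at each time. The vehicle arm therefore shared the gavage and the return of food with the APAP arm, and the untreated mice had neither. All values are log2 expression values from RMA, a method that corrects background, equalises the arrays and summarises the probes of each gene.

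In hepatocytes a minor share of APAP is oxidised by P450 enzymes to the reactive quinone imine NAPQI, which glutathione traps and which binds protein once glutathione runs out. CYP2E1 is the enzyme best known for this step, with CYP1A2 and CYP3A enzymes contributing, and P450 oxidoreductase, the product of Por, passes electrons from NADPH to each of them. These enzymes are most abundant in the pericentral hepatocytes around the central vein, where APAP injury begins. AHR is the ligand-activated factor that controls the CYP1A genes, and PXR and CAR, which bind DNA together with retinoid X receptors, control CYP3A, CYP2B and CYP2C genes.

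In RefSeq (GRCm38.p6) Cyp2e1 lies on chromosome 7 (chr7:140763819-140774990), Cyp1a2 on chromosome 9 (chr9:57676937-57683655) and Cyp3a11 on chromosome 5 (chr5:145854607-145879854). Por lies on chromosome 5 as well (chr5:135670040-135735326), Ahr on chromosome 12 (chr12:35497979-35534989), Nr1i2 on chromosome 16 (chr16:38248349-38294849) and Nr1i3 on chromosome 1 (chr1:171213934-171218845). Promoters of 6 of the 7 members were matched in the RefSeq table, and Ahr was not. The 250 bases before the transcription start are shown for the AHR-controlled Cyp1a2, the PXR-controlled Cyp3a11 and Por, the one member called higher in APAP than in vehicle mice. These 3 promoters were chosen because they belong to genes of different regulation. They are written 5′ to 3′ on the strand of the gene. Capitals mark every match, on either strand, to the AHR-ARNT core GCGTG, the nuclear receptor half-sites AGGTCA and AGTTCA, and the TATA box TATAAA.
Cyp1a2 (chr9:57683656-57683905, minus strand): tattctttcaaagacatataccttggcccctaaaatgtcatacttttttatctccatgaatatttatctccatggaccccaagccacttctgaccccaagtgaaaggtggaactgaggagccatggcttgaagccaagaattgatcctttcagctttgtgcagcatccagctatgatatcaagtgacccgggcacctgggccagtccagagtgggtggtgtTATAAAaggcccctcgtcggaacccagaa
Cyp3a11 (chr5:145879855-145880104, minus strand): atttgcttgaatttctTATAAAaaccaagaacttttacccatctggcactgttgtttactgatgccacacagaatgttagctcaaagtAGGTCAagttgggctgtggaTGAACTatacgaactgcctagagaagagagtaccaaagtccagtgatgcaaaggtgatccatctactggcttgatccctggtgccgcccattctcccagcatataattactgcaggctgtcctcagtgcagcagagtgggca
Por (chr5:135688895-135689144, plus strand): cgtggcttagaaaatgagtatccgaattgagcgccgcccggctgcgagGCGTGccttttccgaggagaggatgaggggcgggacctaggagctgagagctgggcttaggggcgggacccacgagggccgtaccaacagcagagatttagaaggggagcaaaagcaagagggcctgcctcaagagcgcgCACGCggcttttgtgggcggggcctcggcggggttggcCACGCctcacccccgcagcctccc
The Por window precedes a start that lies within the outer limits of the gene, whereas the windows of Cyp1a2 and Cyp3a11 adjoin the gene's end. GCGTG matched the Por window 3 times, starting at -202, -62 and -24 from the start, and matched no other member's window, against 28.2% of all 32851 windows of this length with a match. The Cyp3a11 window held AGGTCA at -162 and, on the opposite strand, AGTTCA at -142, which 14% and 11.8% of all windows also held. A TATAAA stood at -29 in Cyp1a2, at -31 in Cyp2e1 and at -234 in Cyp3a11, against 12.4% of all windows. No 2 of these matches overlapped. The windows of Nr1i2 and Nr1i3 held none of the 4 motifs, which says only that these letters are not in these 250 bases. GC content was 65.6% in the Por window, 47.2% in that of Cyp1a2 and 45.6% in that of Cyp3a11, with a median of 52.4% over all windows.

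Array medians lay between 7.59 and 7.66, but RMA equalises the arrays, so these medians cannot show whether an array differed in overall level. No 2 arrays were identical. The APAP arrays 1 and 3 at 24 h lay apart from the other 3 on the second principal component, which held 19.8% of the variance, and the 24 h differences between APAP and vehicle are therefore also given without them for the members, and for a list described here wherever its count of calls moved by over 1.5 times. The tissue matched its label: the summed level of 11 hepatocyte markers, among them Alb and Apoa1, lay between 17.94 and 18.03 on all 45 arrays. Bright genes dominate these sums and the arrays were equalised, so the narrow range does not measure the share of hepatocytes. Because whole liver was measured, fewer cells of a type and less RNA per cell cannot be told apart anywhere below.

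The first question was how the members differed between APAP and vehicle mice at the same time. Cyp1a2 was lower than in vehicle mice at 3, 6 and 9 h, Ahr at 3 and 6 h and Nr1i2 at 6 and 9 h. Por was higher than in vehicle mice at 6 h, while Cyp2e1, Cyp3a11 and Nr1i3 passed the call at no time. Against untreated mice, APAP mice were not called for Nr1i2 at 6 and 9 h (0.09 and -0.28) or Por at 6 h (0.07). A gene was called when limma gave a Benjamini-Hochberg adjusted p under 0.05 together with a change of at least 1.5-fold, which is 0.585 on the log2 scale. At 3 h 2 of the 7 members were called lower and none higher, against 2.34% of all genes called lower and 1.68% called higher. At 6 h 3 were called lower and 1 higher, against 3.03% and 2.29% of all genes, and at 9 h 2 were called lower and none higher, against 2.05% and 2.49%. At 24 h no member was called, against 1.82% of all genes called lower and 2.86% called higher. Without the size condition, 3, 5, 6 and 2 members passed the adjusted p at 3, 6, 9 and 24 h, where 22.4%, 27.4%, 28.5% and 29.4% of all genes did. The median difference of the members was -0.13, -0.23, -0.30 and -0.37 at these times, beside 0.02, 0.01, -0.03 and -0.05 over all genes.

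**Figure D1:**
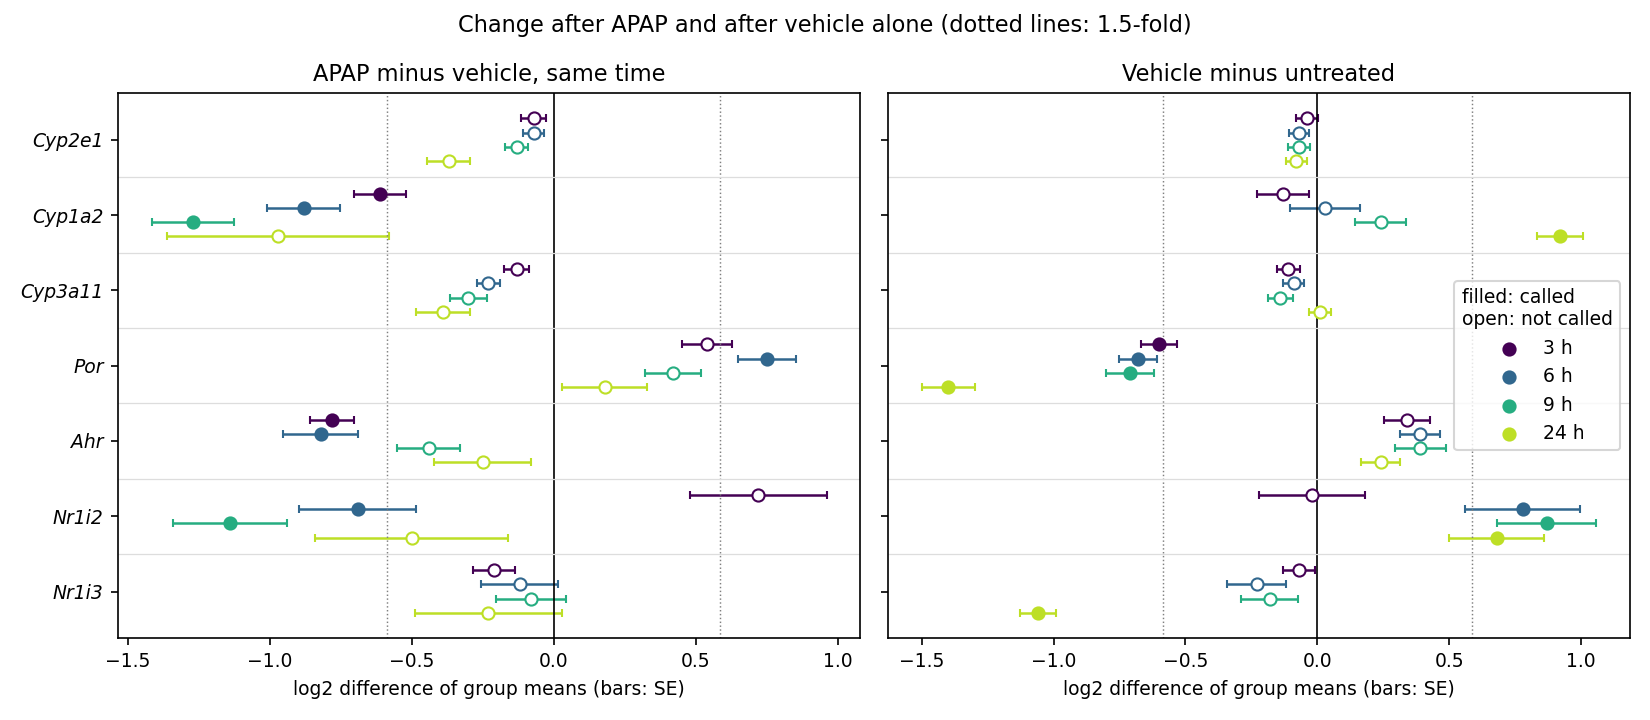
Difference of group means on the log2 scale (x axis) for each member (y axis), APAP minus vehicle on the left and vehicle minus untreated on the right, with bars for the SE, 5 arrays per group and filled points for called differences. Cyp1a2 lies left of 0 at all times after APAP, Por lies right of 0 after APAP and left of 0 after vehicle, and Nr1i2 changes side between 3 and 6 h after APAP.

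Cyp1a2, the AHR-controlled P450 that also clears caffeine, fell after APAP and the difference reached 2.42-fold at 9 h. At 3 h the APAP arrays read 11.84, 11.89, 11.77, 11.85 and 12.15, and the vehicle arrays 12.69, 12.60, 12.48, 12.55 and 12.22. All 5 APAP arrays lay below all 5 vehicle arrays, but APAP array 5 and vehicle array 5 were only narrowly apart. The difference was -0.61 (SE 0.092, adjusted p = 0.000509), a size close to the threshold. It lost the call for size, not for p, when vehicle array 1 or 2 or APAP array 3 was left out, with values of -0.56, -0.58 and -0.57. At 6 h the APAP arrays read 11.98, 11.77, 11.74, 11.66 and 11.79, against 12.77, 12.55, 12.20, 12.96 and 12.87 in the vehicle arrays, again without overlap (-0.88, SE 0.128, adjusted p = 0.000496). At 9 h the APAP arrays read 11.24, 11.60, 11.52, 12.16 and 11.54 and the vehicle arrays 12.98, 12.81, 13.15, 12.81 and 12.67. APAP array 4 was the highest of its group there and still lay below every vehicle array (-1.27, SE 0.144, adjusted p = 6.95e-05).

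At 24 h Cyp1a2 was spread more widely than in any other group, with 10.86, 12.48, 13.19, 13.16 and 13.24 on the APAP arrays and 13.70, 13.52, 13.47, 13.41 and 13.72 on the vehicle arrays. Every APAP array lay below every vehicle array, yet the APAP values spanned 2.39 and the vehicle values 0.31. The difference of -0.97 (SE 0.391) did not pass (adjusted p = 0.0786). Leaving out APAP array 1 gave -0.54 (adjusted p = 0.0233), under the size threshold. Leaving out arrays 1 and 3 together gave -0.60 (adjusted p = 0.0305), which was called. The untreated arrays read 12.49, 12.66, 12.66, 12.49 and 12.91, so the vehicle arrays at 24 h stood 1.90-fold above them (0.92, SE 0.087, adjusted p = 6.47e-06) and the APAP arrays at 3, 6 and 9 h differed from them by -0.74, -0.85 and -1.03 (adjusted p = 0.000117, 7.07e-05 and 0.000125), with no overlap at any of these times. These comparisons use the same 5 untreated arrays and are not independent.

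Cyp2e1, the enzyme best known for NAPQI formation, differed little in size but steadily in one direction. Its values lay near the top of the scale, from 14.53 to 14.62 on the untreated arrays, where the brightest gene of each array read between 14.94 and 15.04. Whether values this bright understate a difference was not tested. APAP minus vehicle was -0.07 at 3 h (SE 0.044, adjusted p = 0.314) and -0.07 at 6 h (SE 0.036, adjusted p = 0.157). At 9 h the APAP arrays read 14.36, 14.36, 14.37, 14.36 and 14.45 against 14.52, 14.49, 14.51, 14.56 and 14.47 in the vehicle arrays, a difference of -0.13 (SE 0.041) that passed the adjusted p (0.0283) but not the size. At 24 h they read 13.85, 14.07, 14.14, 14.26 and 14.29 against 14.48, 14.52, 14.50, 14.51 and 14.49. All APAP arrays lay below all vehicle arrays at 6, 9 and 24 h, and the 24 h difference was -0.37, or 1.30-fold (SE 0.076, adjusted p = 0.00641). Vehicle and untreated mice differed by between -0.04 and -0.08, and none of these 4 differences passed the adjusted p.

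Cyp3a11, the main PXR-induced CYP3A gene of mouse liver, also lay lower after APAP by less than 1.5-fold. It too read close to the top of the scale, from 14.30 to 14.38 on the untreated arrays. The differences from vehicle were -0.13 at 3 h (SE 0.045, adjusted p = 0.0506), -0.23 at 6 h (SE 0.040, adjusted p = 0.00135) and -0.30 at 9 h (SE 0.065, adjusted p = 0.00446). At each of these times every APAP array lay below every vehicle array. At 24 h the APAP arrays read 13.67, 14.32, 13.89, 13.91 and 13.96 and the vehicle arrays 14.40, 14.33, 14.33, 14.32 and 14.34. APAP array 2 sat at the level of the vehicle group while the other 4 lay well below it (-0.39, SE 0.096, adjusted p = 0.0141). Without arrays 1 and 3 this difference was -0.28 (adjusted p = 0.0542). Close relatives of Cyp3a11 share much of its sequence, and how far their RNA added to its signal was not tested.

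**Figure D2:**
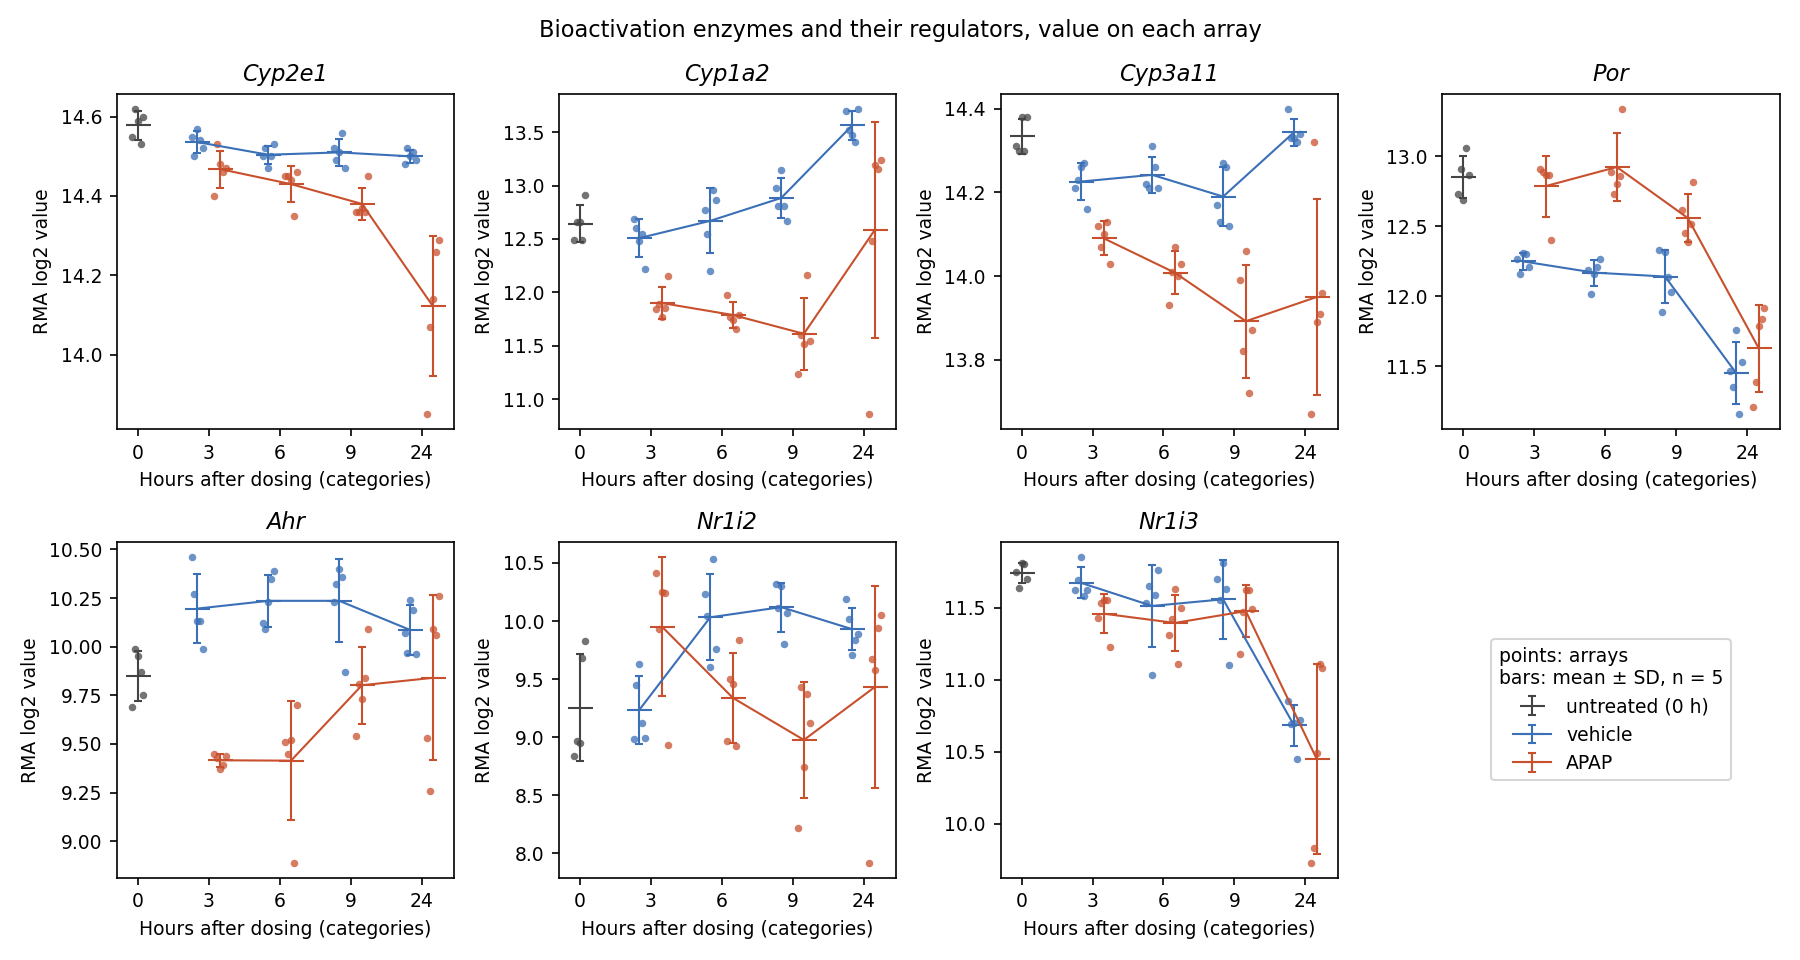
RMA log2 value (y axis, a separate range for each gene) of the 7 members on each of the 45 arrays, by hours after dosing as evenly spaced categories (x axis), with points for arrays and bars for the mean ± SD of 5. The APAP and vehicle values of Cyp1a2 are separate at every time, those of Por separate at 3, 6 and 9 h, and Nr1i3 is low in both arms at 24 h.

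Por, the electron donor on which all microsomal P450 enzymes depend, was the one member called higher than vehicle. Nr1i2 also lay above vehicle at 3 h (0.72) but was not called. The vehicle group of Por itself lay below the untreated mice, and APAP mice were called above untreated mice at no time. The untreated arrays read 12.73, 12.91, 12.69, 13.06 and 12.87. At 3 h the vehicle arrays read 12.27, 12.16, 12.31, 12.30 and 12.21 and the APAP arrays 12.91, 12.89, 12.87, 12.87 and 12.40. APAP arrays 1 to 4 lay within the untreated range and array 5 lay near the vehicle group, though still above it. The 3 h difference from vehicle was 0.54 (SE 0.089, adjusted p = 0.000947), below the size threshold, and 0.63 without APAP array 5. At 6 h the APAP arrays read 12.89, 12.73, 12.80, 12.86 and 13.34 against 12.19, 12.02, 12.16, 12.21 and 12.27 in the vehicle arrays. The APAP arrays lay 1.68-fold above vehicle with no overlap (0.75, SE 0.102, adjusted p = 0.000327). At 9 h they read 12.62, 12.45, 12.39, 12.52 and 12.82 against 12.33, 11.89, 12.32, 12.14 and 12.03 (0.42, SE 0.098, adjusted p = 0.00669). The groups did not overlap, but the highest vehicle array and the lowest APAP array were 12.33 and 12.39.

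By 24 h Por was low in both arms. The vehicle arrays read 11.47, 11.35, 11.76, 11.16 and 11.53 and the APAP arrays 11.21, 11.39, 11.79, 11.84 and 11.92, which overlapped (0.18, SE 0.149, adjusted p = 0.368). Against untreated mice, vehicle gave -0.60, -0.68, -0.71 and -1.40 at 3, 6, 9 and 24 h, each called lower (adjusted p = 0.000119, 4.58e-05, 0.000122 and 6.86e-07), the last a 2.64-fold difference. APAP against untreated gave -0.07 at 3 h (SE 0.101, adjusted p = 0.75), 0.07 at 6 h (SE 0.111, adjusted p = 0.724), -0.29 at 9 h (SE 0.089, adjusted p = 0.0234) and -1.22 at 24 h (SE 0.136, adjusted p = 7.62e-05). The APAP and untreated values overlapped at 3, 6 and 9 h and were fully apart at 24 h. The call of the vehicle arrays at 3 h was lost for size without untreated array 4 (-0.55) or vehicle array 2 (-0.58).

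Ahr, the receptor that controls Cyp1a2, fell at 3 and 6 h and moved back toward vehicle afterwards. At 3 h the APAP arrays read 9.45, 9.43, 9.37, 9.39 and 9.44, the tightest of the 9 groups for this gene, against 10.46, 10.27, 10.13, 10.13 and 9.99 in the vehicle arrays. They were fully apart, by 1.71-fold (-0.78, SE 0.076, adjusted p = 1.6e-05). At 6 h the APAP arrays read 9.51, 9.45, 9.52, 8.89 and 9.70 against 10.12, 10.09, 10.23, 10.35 and 10.39 (-0.82, SE 0.131, adjusted p = 0.000868). At 9 h APAP array 5, at 10.09, passed the lowest vehicle array, at 9.87, and the difference was -0.44 (SE 0.112, adjusted p = 0.0113), below the size threshold. At 24 h it was -0.25 (SE 0.172, adjusted p = 0.279), with APAP arrays 1 and 2 at 9.53 and 9.26 and arrays 3 to 5 between 10.06 and 10.26. The vehicle means lay above the untreated mean of 9.85 by 0.34, 0.39, 0.39 and 0.24 at the 4 times, each past the adjusted p (0.0192, 0.00325, 0.0108 and 0.0328) but below 1.5-fold. Measured from untreated mice, the APAP values stood at -0.43 at 3 h (adjusted p = 0.000423) and -0.44 at 6 h (adjusted p = 0.0314).

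Nr1i2, which encodes PXR, lay on opposite sides of vehicle at 3 h and at 6 and 9 h. At 3 h the APAP arrays read 10.41, 9.93, 10.25, 10.24 and 8.93 and the vehicle arrays 8.98, 9.45, 9.63, 9.12 and 8.99. APAP arrays 1 to 4 lay above every vehicle array and array 5 below every one of them. The difference of 0.72 (SE 0.241) reached an adjusted p of 0.05, just above the threshold before rounding, and was 0.97 without APAP array 5 (adjusted p = 0.000542). At 6 h the APAP arrays read 8.97, 9.50, 9.46, 8.92 and 9.84 against 10.23, 10.04, 9.60, 10.53 and 9.76 in the vehicle arrays. The groups overlapped through APAP array 5 (-0.69, SE 0.206, adjusted p = 0.0274), and the call was lost without vehicle array 1, 2 or 4 or APAP array 1 or 4, with values from -0.57 to -0.69 and adjusted p values from 0.0538 to 0.0668. At 9 h the APAP arrays read 8.22, 9.43, 8.74, 9.37 and 9.12 and the vehicle arrays 10.32, 10.11, 10.30, 9.80 and 10.07, fully apart by 2.21-fold (-1.14, SE 0.201, adjusted p = 0.00125). This call kept its direction and side of the threshold when any single array of either group was left out.

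The vehicle group of Nr1i2 itself moved after 3 h. The untreated arrays read 8.84, 8.97, 8.95, 9.68 and 9.83, in a lower set of 3 and a higher set of 2. Vehicle against untreated was -0.02 at 3 h (SE 0.201, adjusted p = 0.971) and rose to 0.78, 0.87 and 0.68 at 6, 9 and 24 h (adjusted p = 0.0232, 0.00438 and 0.0138), with overlapping arrays at each time. The 6 h call was lost without untreated array 1, 2 or 3 or vehicle array 1 or 4, with values from 0.66 to 0.73, and the 24 h call without untreated array 1 (0.58), in one model over 45 arrays (0.68, adjusted p = 0.0887) and at an adjusted p under 0.01. APAP against untreated passed at no time, with 0.70, 0.09, -0.28 and 0.18 at 3, 6, 9 and 24 h (adjusted p = 0.0982, 0.841, 0.417 and 0.721). At 24 h the APAP arrays read 7.92, 9.67, 9.58, 9.94 and 10.05 against 10.19, 10.02, 9.71, 9.84 and 9.89, and the difference of -0.50 (SE 0.339, adjusted p = 0.266) became -0.12 without array 1.

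Nr1i3, which encodes CAR, showed no called difference between APAP and vehicle, and fell in both arms at 24 h. Its differences from vehicle were -0.21, -0.12, -0.08 and -0.23 at 3, 6, 9 and 24 h (SE 0.074, 0.135, 0.124 and 0.259, adjusted p = 0.0555, 0.563, 0.672 and 0.497). At 3 h every APAP array lay below every vehicle array, and at the other times the groups overlapped. The untreated arrays read 11.75, 11.64, 11.81, 11.80 and 11.70, and the vehicle arrays at 24 h read 10.85, 10.69, 10.70, 10.45 and 10.72. That is a 2.09-fold fall with no overlap (-1.06, SE 0.068, adjusted p = 2.7e-07). The APAP arrays at 24 h read 9.73, 9.83, 10.49, 11.11 and 11.08, so arrays 1 and 2 lay below the vehicle group, array 3 within it and arrays 4 and 5 above it (-1.29 against untreated, SE 0.253, adjusted p = 0.0028). At 3, 6 and 9 h the vehicle arrays differed from untreated by -0.07, -0.23 and -0.18, none past the adjusted p.

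Over the members, 1 of 7 was called against untreated in the vehicle mice at 3 h (Por, lower), where 0.853% of all genes were called lower, and 2 of 7 at 6 h and at 9 h (Por lower and Nr1i2 higher), where 2.89% and 3.87% of all genes were called in either direction. At 24 h 4 of 7 were called (Cyp1a2 and Nr1i2 higher, Por and Nr1i3 lower), where 2.31% of all genes were called higher and 2.09% lower. In the APAP mice 1 of 7 was called against untreated at 3, 6 and 9 h (Cyp1a2, lower), against 2.98%, 4.26% and 6.31% of all genes, and 2 of 7 at 24 h (Por and Nr1i3, lower), against 8.12%. The arrays of APAP and vehicle mice did not overlap for 5, 5, 5 and 3 of the 7 members at 3, 6, 9 and 24 h, where 16.1%, 21.5%, 21.2% and 20.3% of all genes did not overlap.

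The spread of the APAP group at 24 h was wider than in the other groups for all 7 members. Its SD was 1.02 for Cyp1a2, 0.87 for Nr1i2 and 0.659 for Nr1i3, against median SDs over the other 8 groups of 0.176, 0.378 and 0.161. APAP array 1 was the lowest of its 5 for 6 of the 7 members, the exception being Ahr, for which array 2 was lowest. Array 5 was the highest for 5 of the 7. Relative to the vehicle mean, array 1 stood at -2.71 for Cyp1a2, -2.02 for Nr1i2, -0.95 for Nr1i3 and -0.65 for Cyp2e1. Array 5 stood at -0.32, 0.12, 0.40 and -0.20 for the same genes. Arrays 1 and 3 had the highest summed levels of infiltrating macrophage markers (11 genes, among them Lgals3 and Ccr2), at 14.14 and 14.00 against 12.70 to 12.88 on arrays 2, 4 and 5 and 11.39 to 11.58 in vehicle mice. Neutrophil markers (8 genes, among them S100a8) summed to 12.50 and 13.03 on arrays 1 and 3 and to 10.85 to 11.20 on the others. Cyp2e1, Cyp1a2, Por, Ahr and Nr1i3 had their lowest values on arrays 1 and 2, while the lowest pair of Cyp3a11 (13.67 and 13.89) and of Nr1i2 (7.92 and 9.58) was arrays 1 and 3. The summed level of 16 pericentral markers was 14.30, 14.80, 15.08, 15.19 and 15.29 on arrays 1 to 5, against 15.94 to 16.01 in vehicle mice. Cyp2e1 followed the same order over these arrays, and so did Por, which was not lower than vehicle at 24 h (0.18). The part of infiltrating or of pericentral cells in the members' values was not tested. Without arrays 1 and 3 the difference from vehicle at 24 h was -0.29 for Cyp2e1 (adjusted p = 0.0108), 0.27 for Por (adjusted p = 0.234), -0.23 for Ahr (adjusted p = 0.432), -0.04 for Nr1i2 (adjusted p = 0.822) and -0.01 for Nr1i3 (adjusted p = 0.99), and none of these 5 was called.

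**Figure D3:**
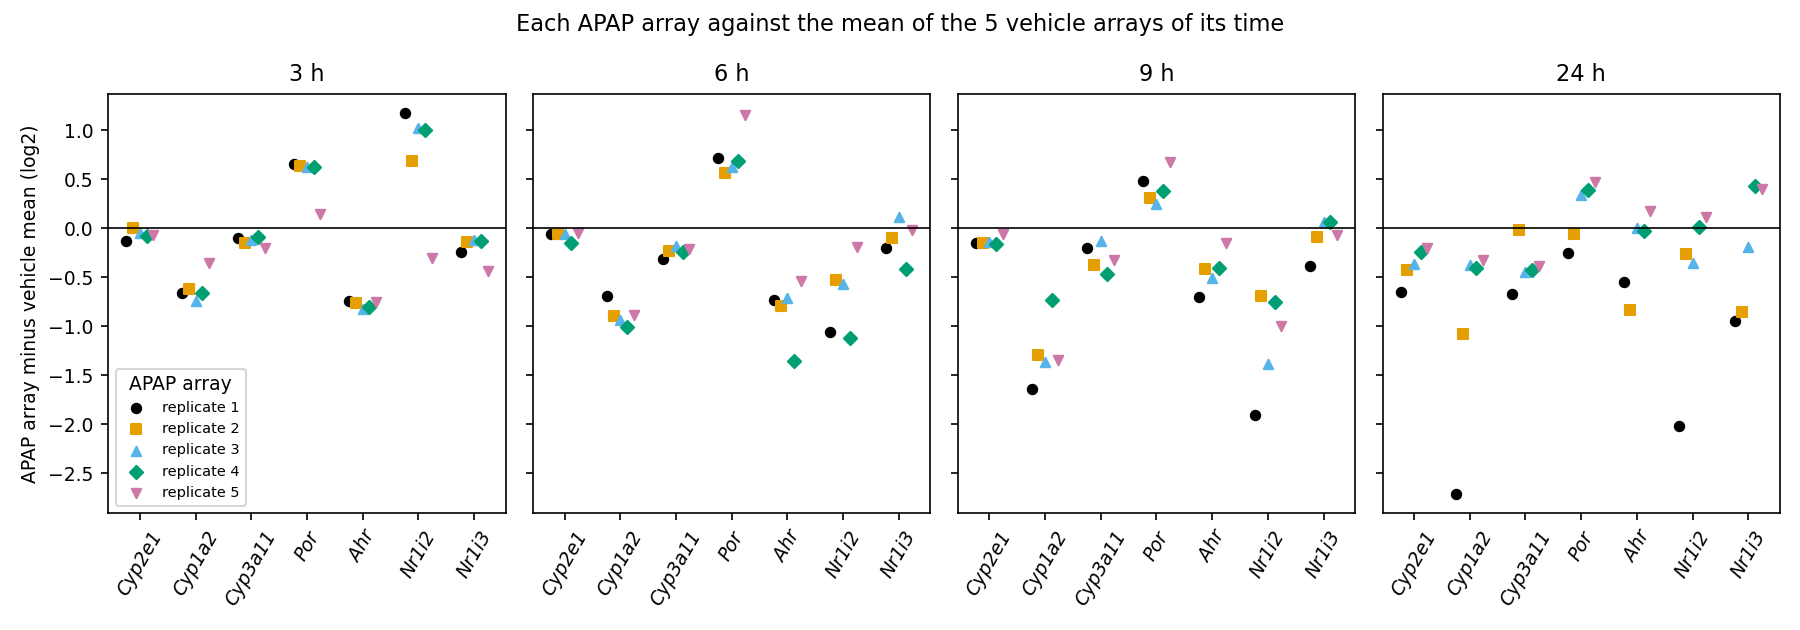
Each APAP array minus the mean of the 5 vehicle arrays of its time (y axis, log2) for the 7 members (x axis), in 4 panels for 3, 6, 9 and 24 h, with a symbol for each replicate number, which does not link mice across times. At 24 h replicate 1 lies lowest for 6 members and reaches -2.71 for Cyp1a2, and at 3 h replicate 5 lies nearest to or beyond the vehicle mean for Por and Nr1i2.

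Whether the APAP effect itself changed between times was tested in one limma model over the 40 APAP and vehicle arrays. For Nr1i2 the effect moved from 0.72 at 3 h to -0.50 at 24 h, a change of -1.22 (SE 0.405, adjusted p = 0.017), which was the one member called over this interval, where 8.25% of all genes were. Without APAP arrays 1 and 3 at 24 h that change was -0.76 (adjusted p = 0.0928). The change of Nr1i2 between 3 and 6 h was larger, at -1.41 (SE 0.405), but did not pass (adjusted p = 0.107), in a contrast where 0.248% of all genes were called. It was called without APAP array 5 at 3 h (-1.67, adjusted p = 0.0307). Cyp2e1 moved from -0.07 to -0.37 between 3 and 24 h (-0.31, SE 0.067, adjusted p = 0.000525), and between 9 and 24 h by -0.24 (SE 0.067, adjusted p = 0.0132), both under 1.5-fold. Cyp3a11 changed by -0.26 (adjusted p = 0.0261) and Ahr by 0.53 (adjusted p = 0.032) between 3 and 24 h, also under 1.5-fold. The effect on Ahr was called without APAP array 1 at 24 h (0.61, adjusted p = 0.0173) or array 2 (0.68, adjusted p = 0.00318). For Cyp1a2 the effect did not change past the threshold over any interval: the steps were -0.27, -0.39 and 0.30 (adjusted p = 0.875, 0.593 and 0.623), the last called without APAP array 1 at 24 h (0.73, adjusted p = 0.0144). Por changed by 0.21, -0.33 and -0.24 over the same steps, and none passed (adjusted p = 0.75, 0.326 and 0.385).

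Other genes of the pathway were read from lists of known partners and targets. Among 8 measured electron-transfer partners of P450 enzymes, none was called after APAP at 3 h, 1 was lower at 6 h, 2 lower and 1 higher at 9 h, and 1 higher at 24 h. Cyb5b, the outer mitochondrial cytochrome b5, was lower at 6 and 9 h (-0.84 and -0.73, adjusted p = 0.000505 and 0.000593) and rose in vehicle mice against untreated from 0.65 at 3 h to 1.61 at 24 h, opposite in sign to Por there. Cyb5r1, a cytochrome b5 reductase, was higher at 9 and 24 h (0.84 and 1.73, adjusted p = 0.000222 and 0.00052). The list's median was -0.10, -0.20, -0.12 and -0.15 at the 4 times.

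Of 9 measured AHR partners and chaperones, 1, 1, 2 and 0 were called at 3, 6, 9 and 24 h, all higher. They were Nrip1, a corepressor of nuclear receptors (0.61, 0.93 and 0.73 at 3, 6 and 9 h), and at 9 h Hsp90ab1, the chaperone that holds unliganded AHR in the cytoplasm (0.72, adjusted p = 1.68e-06). Of 6 measured AHR targets other than Cyp1a2, 1, 2, 1 and 1 were called, again all higher, and at 24 h 2 were called without APAP arrays 1 and 3. The share of all genes called higher was 1.68%, 2.29%, 2.49% and 2.86%. With all arrays kept, each call was Tiparp or Nqo1, and the other measured targets were not called. The list's median was 0.30, 0.17, 0.01 and 0.11 at the 4 times. Tiparp, an AHR-induced repressor of AHR, rose by 1.21 at 3 h (adjusted p = 0.00178) and by 1.19 at 6 h (adjusted p = 0.0119), and Nqo1, a quinone reductase that NRF2 also induces, rose at 6, 9 and 24 h (0.73, 0.95 and 0.84, adjusted p = 0.00163, 2.63e-05 and 0.00485). Tiparp at 3 h, and both Tiparp and Nqo1 at 6 h, were called higher while Ahr and Cyp1a2 were called lower.

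Among 26 measured PXR and CAR targets other than Cyp3a11, 5, 7, 8 and 7 were lower and 2, 2, 1 and 1 higher at 3, 6, 9 and 24 h, with list medians of -0.14, -0.17, -0.28 and -0.32. The lower genes were mostly P450s of the Cyp2c cluster. Cyp2c29 fell at each time (-0.66, -1.08, -1.23 and -0.76, adjusted p = 0.00113, 1.1e-06, 2.88e-07 and 0.018), and Cyp2c37 fell by the most at 24 h (-2.24, adjusted p = 0.00163). Cyp2c38, Cyp2c50 and Cyp2c54 were lower at all 4 times. These genes are close relatives whose RNA may share probes, so they are not independent counts. Gadd45b, a stress gene that CAR can induce, rose at each time and by 2.33 at 9 h (adjusted p = 3.5e-06), but its 24 h call (0.96, adjusted p = 0.0246) was lost without APAP arrays 1 and 3. Cyp2b10, the classical CAR target, was higher at 6 h (1.2, adjusted p = 0.00729) and lower in vehicle than untreated mice at 6, 9 and 24 h (-1.45, -1.55 and -1.74, adjusted p = 0.00842, 0.00676 and 0.00198). Of 12 genes listed as PXR and CAR partners, 2, 1, 1 and 1 were called, all higher. Cdkn1a, a cell-cycle inhibitor and not itself a receptor partner, was called at each time (2.23 to 2.96). It was the only call at 6, 9 and 24 h. The other call at 3 h was Ppargc1a, a coactivator induced by fasting (1.02, adjusted p = 0.00142).

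**Figure D4:**
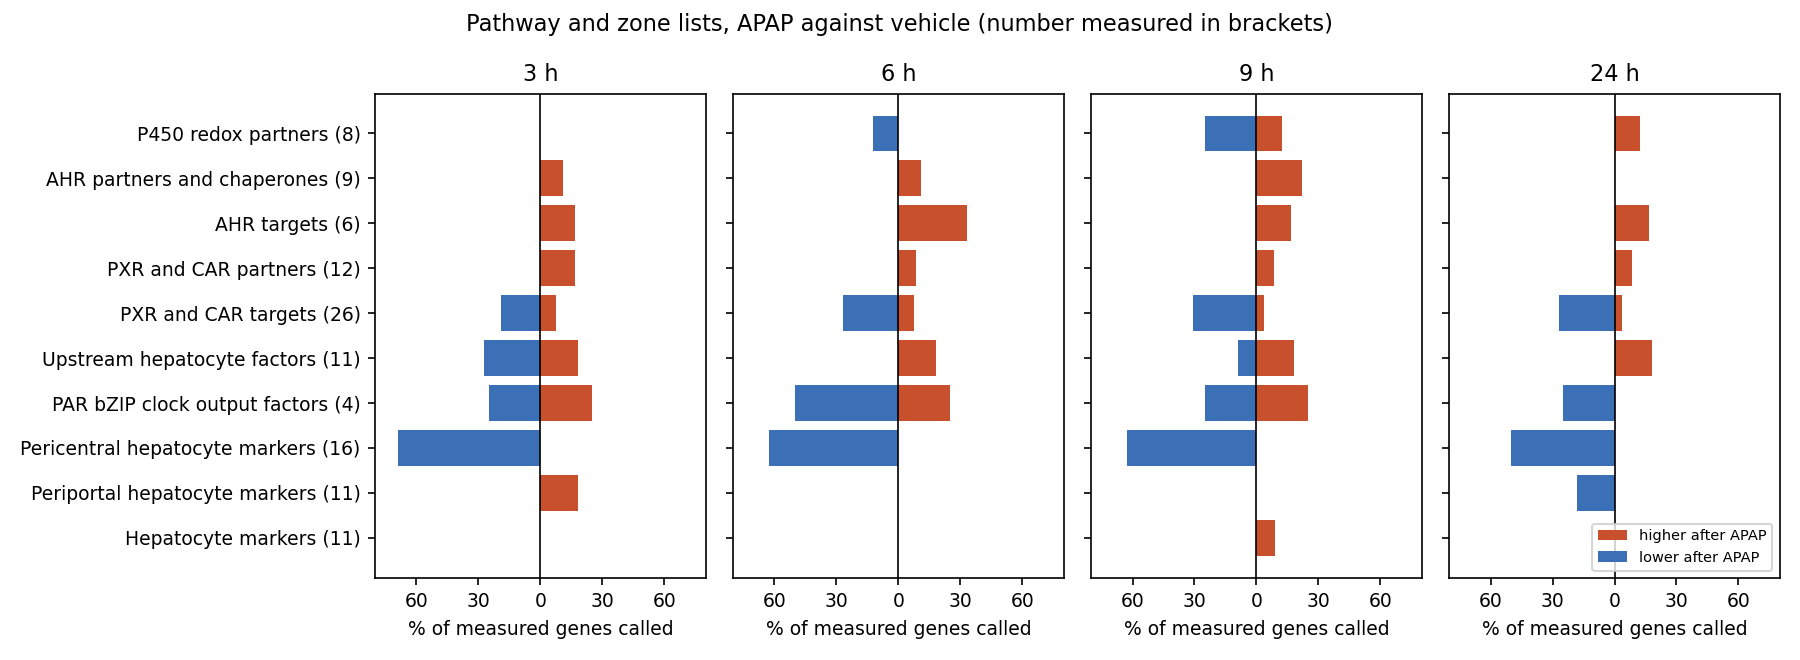
Percentage of the measured genes of each list (y axis) that were called higher (right) or lower (left) after APAP than after vehicle (x axis), in panels for 3, 6, 9 and 24 h. Pericentral markers were called lower only, 11, 10, 10 and 8 of 16, and PXR and CAR targets mostly lower. Of 6 AHR targets, 1, 2, 1 and 1 were called, all higher.

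Upstream of the members, 11 liver-enriched factors were measured. Cebpb and Cebpd, C/EBP factors of the acute response, rose at all 4 times (by 1.38 and 2.24 at 3 h, adjusted p = 1.7e-05 and 7.01e-06), but at 24 h, with 0.83 and 1.02 (adjusted p = 0.0282 and 0.0364), neither was called without APAP arrays 1 and 3. Foxa1, Foxa2 and Onecut1, which maintain hepatocyte gene expression, were lower than in vehicle mice at 3 h (-1.13, -0.98 and -1.37, adjusted p = 0.00399, 0.00353 and 0.00117). The circadian group of 4 held Dbp, an activator that in mouse liver drives CAR and Por expression. Dbp was lower than in vehicle mice at each time (-1.22, -1.55, -1.03 and -1.17). Its repressor counterpart Nfil3 was higher than in vehicle mice at 3, 6 and 9 h (1.65, 2.55 and 2.75). In vehicle mice against untreated, Dbp was higher by 2.33 at 6 h and 2.65 at 9 h, while Por was lower at both times. The clock hour of dosing was not analysed here, so hour of sampling cannot be told apart from hours since dosing and refeeding in those comparisons.

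Marker genes of fasting and refeeding differed between the arms too. Of 16 fasting and refeeding markers, 7 were higher and 2 lower after APAP at 3 h, 4 and 4 at 6 h, 4 and 5 at 9 h, and 0 and 5 at 24 h. The 5 lower at 24 h became 2 without APAP arrays 1 and 3 or at an adjusted p under 0.01, and 3 with the replicate block. Igfbp1, an insulin-repressed gene of the fasted liver, was higher by 4.29 at 3 h (adjusted p = 2.06e-05). In vehicle mice at 3 h against untreated it stood at -3.33 (adjusted p = 0.000451). Igfbp1 is 1 of the 16 markers, of which 7 were not called after APAP at 3 h, and the list's median there was -0.03. Por was lower in vehicle than in untreated mice at 3 h, and its difference of 0.54 between APAP and vehicle mice was not called. Food intake was not analysed here, and its part in the result was not tested.

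Markers of the pericentral and periportal zones were read as well, in whole liver and not zone by zone. Of 16 pericentral markers, a list that holds none of the 7 members, 11, 10, 10 and 8 were lower after APAP at 3, 6, 9 and 24 h and none higher, with medians of -1.0, -0.66, -0.98 and -1.0. Their summed level was 15.14 to 15.38 in APAP mice and 15.98 to 16.12 in vehicle mice at 3 h. Glul, glutamine synthetase of the innermost layer, was lowest at the last time (-2.34 at 3 h, -3.14 at 24 h, adjusted p = 3.52e-06 and 3.78e-07), and Slc1a2 and Rhbg of the same cells fell at each time. Of 11 periportal markers, 2 were higher at 3 h, 0 were called at 6 and 9 h and 2 were lower at 24 h (0 without APAP arrays 1 and 3), with medians of 0.19, 0.06, 0.07 and 0.00. Beside these, the pericentral enzymes Cyp2e1 and Cyp1a2 differed by -0.07 and -0.61 at 3 h. The part of pericentral cell loss in the fall of Cyp1a2 was not tested. Of 11 general hepatocyte markers none was called at 3, 6 or 24 h, and Apob was higher at 9 h (0.61, adjusted p = 0.000892).

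The 9 group means of Cyp1a2 spanned 1.95 on the log2 scale, those of Por 1.47, of Nr1i3 1.29 and of Nr1i2 1.14, while Cyp2e1, Cyp3a11 and Ahr spanned less than 1. In order of level, Cyp1a2 was highest in vehicle mice at 24 h, which stood clear of the next group, vehicle at 9 h, and lowest in APAP mice at 9 h. Por was highest in APAP mice at 6 h and untreated mice, which overlapped, and lowest in vehicle and APAP mice at 24 h, which overlapped as well. Nr1i3 was highest in untreated mice and lowest in both 24 h groups, with the gap lying between APAP at 6 h and vehicle at 24 h. The order of Nr1i2 held no gap: each neighbour in it overlapped the next. For these 4 genes the nearest of the 18180 patterns were sought by the root mean square difference of the centred 9 group means. Nearest to Cyp1a2 were Cyp2c29 (0.135), Nqo2 (0.144) and Gstm6 (0.152). Nearest to Por were Apob (0.109), Cyp39a1 (0.158) and Abca6 (0.163), and nearest to Nr1i3 were Ephx2 (0.112), Pctp (0.114) and Acot4 (0.124). For Nr1i2 the nearest, Cmah (0.224), Gbp7 (0.235) and Slc26a1 (0.250), were farther off. These neighbours depended on the measure. By Pearson correlation of the group means, only Nqo2 was again among the 3 nearest of Cyp1a2, and no gene was shared for Por, Nr1i3 or Nr1i2.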

How the data were processed

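Liver RNA of 45 mice was hybridised to Affymetrix arrays, and the deposited log2 values were made by the authors with RMA (affy 1.64.0 in R 3.6.1, custom probe sets of BrainArray version 24, 1 per Entrez gene). The log2 table was used as deposited, with no further normalization. Gene symbols came from a second table, whose 45 value columns could not be tied to a label and were not used. Its symbols named 18177 of 18180 genes.

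Each comparison was a limma 3.58.1 fit (R 4.3.3) across all genes over the 10 arrays of its groups, with empirical Bayes moderation and Benjamini-Hochberg adjustment. Changes of effect were contrasts in one fit over 40 arrays. Calls required 1.5-fold or more beside the adjusted p threshold of 0.05. The code was tested on simulated data with known changes. Depth has no counterpart on arrays, and the 5 arrays per group limit the precision.

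Members and lists were chosen with earlier results of these data known. The text names every member, up to 3 called genes with the largest change from each list, some defining markers, and the 3 nearest patterns of members whose group means span at least 1 on the log2 scale. Cyp2c29 among PXR and CAR targets, Foxa1 and Foxa2 fall outside that rule and were chosen after their values were seen. Alternatives were a replicate block, one model over 45 arrays, weights for arrays, trend and robust moderation, centring arrays on their median, leaving out the 25% of genes with the lowest mean, an adjusted p under 0.01, a test against a 1.5-fold change and leaving out each array. A fit without APAP arrays 1 and 3 at 24 h was added after seeing the data.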

Additional observations from a re-analysis of the deposited data

Results flagged for a closer look

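In 6 of the 63 groups of 5 arrays (7 genes in 9 groups), 1 array lay apart from the other 4 by more than Dixon's critical value of 0.71. Chance flags about 1 in 20 such groups. Por had 2 of them: APAP array 5 at 3 h was the lowest of its group at 12.40, with the next at 12.87, and APAP array 5 at 6 h was the highest at 13.34, with the next at 12.89. These are different mice. For Cyp2e1, APAP array 4 at 6 h was the lowest at 14.35, with the next at 14.44, and APAP array 5 at 9 h was the highest at 14.45, with the next at 14.37. For Cyp3a11, vehicle array 1 at 24 h was the highest at 14.40, with the next at 14.34. For Nr1i2, APAP array 1 at 24 h was the lowest at 7.92, with the next at 9.58.

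The APAP effect on Nr1i2 differed between 3 and 24 h by -1.22 (limma, adjusted p = 0.017).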

How the results depend on the processing

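Of 511 values for single members in APAP against vehicle under all alternatives, 483 kept their direction and side of the threshold, 19 lost the call, 8 gained it and 1 uncalled value changed sign. In vehicle against untreated 473 of 504 were kept and 20 lost, in APAP against untreated 490 of 511 were kept and 4 lost, and among changes of the APAP effect 759 of 798 were kept and 3 lost. No called value changed sign in any comparison, and uncalled values did so 1, 11, 15 and 25 times in these 4 families. Counts of called genes in the lists moved by over 1.5 times in 397 of 4752 cases, and leaving out single arrays was not run for them.

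The test against a 1.5-fold change left no member called at 3 h (Cyp1a2 -0.61, Ahr -0.78) or 6 h (Cyp1a2 -0.88, Por 0.75, Ahr -0.82, Nr1i2 -0.69) and 1 at 9 h, where Nr1i2 (-1.14) was lost. By that test 0, 0, 0 and 2 members were called in vehicle and 0, 0, 0 and 1 in APAP mice against untreated at 3, 6, 9 and 24 h, and 0 for the change from 3 to 24 h. It called 135, 119, 314 and 334 of all genes in APAP against untreated and 168 for that change. Over all genes it called 200, 160, 166 and 47 between APAP and vehicle, against 732, 967, 826 and 851, and 60, 77, 156 and 241 in vehicle against untreated, against 363, 526, 704 and 800. An adjusted p under 0.01 ended the call of Nr1i2 at 6 h (-0.69) and called 537 genes between APAP and vehicle at 24 h. It left 1 member in vehicle against untreated at 6 h, beside 477 of all genes. For the change from 3 to 24 h it left 0 members, beside 1306 of all genes.

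In one model over 45 arrays Cyp1a2 at 3 h (-0.61, adjusted p = 0.0541) and Nr1i2 at 6 h (-0.69, adjusted p = 0.0656) lost the call. Cyp1a2 at 24 h gained it (-0.97, adjusted p = 0.00132). This left 1 member at 3 h, 1 at 24 h and 1 in vehicle against untreated at 6 h, beside 724, 932 and 516 of all genes. The cause of these changes was not tested. Array weights called Nr1i2 at 3 h (0.88, adjusted p = 0.0082) and turned Nr1i3 at 24 h to 0.14 (adjusted p = 0.587). With these weights 0 members were called in vehicle and 2 in APAP against untreated at 3 h, beside 405 and 619 of all genes. For the changes from 3 to 6, 9 to 24 and 3 to 24 h, 1, 2 and 2 members were called. Over all genes 178, 650 and 1718 were called for these changes, against 45, 542 and 1499 in the main fit. Without the dimmest 25% of genes Nr1i2 at 3 h was called (0.72, adjusted p = 0.0419). The fit and the adjustment were both rerun on fewer genes, and which of them moved the call was not tested. The labels do not say what the replicate number stands for. Deviations of same-numbered APAP and vehicle arrays from their group means correlated above 0.1 in 2 of 20 pairs, over a range from -0.27 to 0.40. With the replicate block Nr1i2 was called at 3 h (0.72, adjusted p = 0.0273) and not at 6 h (-0.69, adjusted p = 0.0847), no other call between APAP and vehicle changed, and 727, 961, 821 and 809 genes were called at 3, 6, 9 and 24 h.

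Leaving out 1 array gave 1 to 4 members called at 3 h (4 without APAP array 5), beside 687 to 793 of all genes. Cyp1a2 ran from -0.68 to -0.56 there, Por from 0.51 to 0.63 and Nr1i2 from 0.60 to 0.97. Nr1i2 at 6 h ran from -0.82 to -0.57. In vehicle against untreated 0 to 1 members were called at 3 h and 1 to 2 at 6 h, beside 340 to 401 and 502 to 553 of all genes. In APAP against untreated at 3 h 1 to 2 were called, beside 507 to 598. For the changes from 3 to 6, 9 to 24 and 3 to 24 h, 0 to 1, 0 to 2 and 1 to 2 were called. Over all genes 31 to 70, 481 to 639 and 1392 to 1728 were called for these changes. Without APAP arrays 1 and 3 at 24 h, 498 genes were called there, and Cyp1a2 was called (-0.60, adjusted p = 0.0305), giving 1 member. For the changes from 9 to 24 and 3 to 24 h, 2 members and 0 members were called, beside 563 and 1259 of all genes. Signal over background was not analysed here.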
